A study of Mus musculus with 8 samples.

Results

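Small nucleolar RNAs (snoRNAs) guide the chemical modification and cutting of ribosomal RNA, and in mammals most of them are cut out of the introns of longer host RNAs. The hosts Gas5, Snhg1, Snhg3, Snhg6, Snhg8 and Snhg12 are spliced RNAs with little coding capacity. Several are known to begin with the pyrimidine run of 5′ TOP messages, whose translation follows growth signals, and to be destroyed by nonsense-mediated decay when ribosomes read their short frames, so that Gas5, named as a growth arrest-specific transcript, piles up when translation slows. Malat1 and Neat1 are long RNAs that stay in the nucleus. Malat1 is an abundant RNA of nuclear speckles, and Neat1 is the scaffold of paraspeckles.

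These 8 RNAs were chosen by gene symbol and looked up in the gene count table of the study, which lists 41342 genes. A row was found for 7 of the 8 names, comprising 5 snoRNA host genes and 2 nuclear lncRNAs. All 7 passed the filter on low counts. No row carries the symbol Snhg8, which is not analysed here.

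The libraries came from splenic B cells of mice homozygous for the 3'RR, the hs3b-hs4 or the 3'PAL deletion and of wild-type (WT) mice. The 3'RR is a group of enhancers at the 3′ end of the IgH locus, hs3b and hs4 are members of that group, and for the 3'PAL allele the labels give the name alone. The labels give all 4 genotypes the same strain entry, mixed background 129/C58BL/6. Stimulated cells had been cultured for 48 hours with 5 µg/mL lipopolysaccharide (LPS, a bacterial product that activates B cells) and passed over a density gradient, and resting cells were taken fresh after a gradient and depletion of CD43-bearing cells. Each genotype in each state gave 1 library, from a pool of 4 animals, so the spread between single animals was not measured. The mutants are homozygous animals, so the cells carry the deletion before and during culture.

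Total counts per library ran from 17883683, in resting WT cells, to 28785192. The B cell marker Cd79a was at 217.8 to 344.1 CPM (counts scaled to library size) in stimulated and 410.8 to 471.8 CPM in resting libraries, and Ms4a1 at 768.2 to 936.5 CPM in stimulated and 712.2 to 894.9 CPM in resting ones. The sum of 10 T cell markers was 11.2 to 22.4 CPM in stimulated libraries, with 1 to 5 of the 10 at 0, against 32.6 to 65.8 CPM in resting ones, with at most 1 of the 10 at 0. Of these, Cd3e was at 0 in every stimulated library and at most 0.156 CPM in resting ones. Lck had the highest mean log2 CPM (4.09) of the 5 T cell markers tested, and changed by -0.04 on the log2 scale from resting to stimulated. Cd4, Cd8a, Cd5 and Cd8b1 changed by -8.08, -8.69, -3.00 and -0.49, so the sum joins genes that moved differently. The sum of 13 monocyte and macrophage markers was 12.5 to 21.6 CPM in stimulated libraries, with 2 to 7 of the 13 at 0, against 349.5 to 1559 CPM in resting ones. For 9 erythroid markers the sum was 10.5 to 244.0 CPM in stimulated libraries, with at most 1 of the 9 at 0, against 3108 to 21510 CPM in resting ones. The resting WT library had the fewest erythroid counts of the resting ones and also 1.94% of its counts in the single entry AY036118. The part of these other cells in any difference between states or genotypes was not tested, and in these pools fewer cells of a type and less RNA per cell cannot be told apart.

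The sequences below show the 5′ ends of the host genes and the intronic snoRNA that could be followed beside its host. The RefSeq promoter table (GRCm38.p6) matched 6 of the 8 names, and Snhg6 and Neat1 have no entry. Each line runs from 40 bases before the RefSeq start to 30 bases after it. Capitals mark an unbroken run of at least 5 C or T letters that covers the start or begins within 5 bases of it. A 5′ TOP message begins with a run of this kind at its first base.
Gas5, chr1:161035126-161035195, plus strand, the second of 2 starts: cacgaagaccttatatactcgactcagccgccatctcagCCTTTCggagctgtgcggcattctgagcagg
Snhg1, chr19:8723447-8723516, plus strand: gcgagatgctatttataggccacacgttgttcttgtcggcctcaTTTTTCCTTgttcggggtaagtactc
Snhg3, chr4:132353657-132353726, minus strand: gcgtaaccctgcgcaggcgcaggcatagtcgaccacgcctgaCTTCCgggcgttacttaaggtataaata
Snhg8, chr3:123508307-123508376, minus strand: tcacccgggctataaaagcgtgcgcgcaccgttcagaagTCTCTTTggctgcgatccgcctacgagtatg
Snhg12, chr4:132308638-132308707, plus strand: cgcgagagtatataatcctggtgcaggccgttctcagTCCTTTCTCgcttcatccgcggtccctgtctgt
Malat1, chr19:5802643-5802712, minus strand: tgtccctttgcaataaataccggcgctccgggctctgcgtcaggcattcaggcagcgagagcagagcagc

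Such a run, covering the start or beginning within 5 bases of it, was in 5 of the 6 host gene windows, of which 2 are of Gas5, and in 21.9% of the 32851 windows of the table. The run was 9 letters long in Snhg1 and Snhg12, 7 in Snhg8, 6 in Gas5 and 5 in Snhg3. It covered the start in Gas5, Snhg8 and Snhg12. In Snhg1 it began only at base 5 of the RefSeq RNA and in Snhg3 at base 3, so these RefSeq RNAs do not begin with the run. The first Gas5 start and the Malat1 start have none. The letters TATA, which read the same on both strands, stood 40 to 16 bases before the start in 4 of the 6 host gene windows, and in 5.91% of all windows. The letters CACGTG, also the same on both strands, were in none of the 6 host gene windows of 300 bases and in 7.15% of all windows. These matches describe the RefSeq starts and were not checked against the reads.

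The snoRNAs themselves were mostly out of reach of the count table. The spans of Gas5, Snhg1, Snhg3, Snhg6 and Snhg12 hold 24 snoRNA entries. The 20 that lie wholly inside an exon block of their host had 0 counts in all 8 libraries. The 4 others, Snora73b, Snora73a, Snord87 and Snora16a, all had counts. A zero of this kind therefore went with the position of the entry in the table, and it sets no upper limit on the level of that snoRNA. The table's exon blocks cover 91.3% of the Gas5 span, the whole of Snhg1 and 69.3% of Snhg12, against 17.4% of Snhg3 and 53.1% of Snhg6. The Gas5, Snhg1 and Snhg12 counts thus include intron sequence. The Snhg3 blocks also hold 159 of the 205 bases of Snora73a, so they too reach into snoRNA sequence. Spliced and unspliced RNA of these hosts were not told apart.

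Snord47 in Gas5 is 1 of the 9 Gas5 entries at 0, and Snord87 in Snhg6 is 1 that was counted. Both carry the C and D boxes of this snoRNA class, shown in capitals (TGATGA and CTGA) in the GENCODE M21 transcripts.
Snord47, chr1:161038082-161038158, plus strand: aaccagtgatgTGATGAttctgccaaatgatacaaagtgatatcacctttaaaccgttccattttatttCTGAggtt
Snord87, chr1:9942463-9942549, minus strand: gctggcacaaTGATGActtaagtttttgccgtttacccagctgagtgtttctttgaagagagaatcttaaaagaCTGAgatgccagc

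Snora73b and Snora73a are the copies of the H/ACA snoRNA U17 within Snhg3, which acts in the processing of ribosomal RNA. The copies are 205 bases long and identical at 198 of them. Capitals mark the 7 bases that differ.
Snora73b, chr4:132352322-132352526, minus strand: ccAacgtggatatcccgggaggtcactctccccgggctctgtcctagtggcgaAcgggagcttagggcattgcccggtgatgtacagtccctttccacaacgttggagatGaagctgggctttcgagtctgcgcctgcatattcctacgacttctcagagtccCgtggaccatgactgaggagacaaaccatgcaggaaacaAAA
Snora73a, chr4:132352775-132352979, minus strand: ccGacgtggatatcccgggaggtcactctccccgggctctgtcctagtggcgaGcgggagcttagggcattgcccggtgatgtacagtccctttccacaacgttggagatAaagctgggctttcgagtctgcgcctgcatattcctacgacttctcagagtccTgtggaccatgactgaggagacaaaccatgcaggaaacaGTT

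The first question was how LPS stimulation moved the 7 RNAs. Snhg3 rose, by 1.51 on the log2 scale, while Snhg12, Malat1 and Neat1 each fell by about 1 on that scale. Gas5 rose slightly, by a call that did not hold when single libraries were left out. Snhg1 and Snhg6 did not pass the test. The host genes thus did not move as a group, with 2 of the 5 tested rising and 1 falling (median log2 change 0.30), and both nuclear lncRNAs fell (median -1.11), beside a median of -0.02 over all 14789 tested genes. Among all tested genes 69.7% passed the same test, 34.5% higher and 35.2% lower, so 5 calls among 7 RNAs is close to the background.

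The test was edgeR's quasi-likelihood test on the counts with genotype and state as terms, in which the 4 genotypes stand in as replicates of a state, with Benjamini-Hochberg adjustment over all tested genes and a threshold of 0.05. Changes are given as log2 of stimulated over resting with the standard error, and levels as CPM after TMM scaling.

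**Figure D1:**
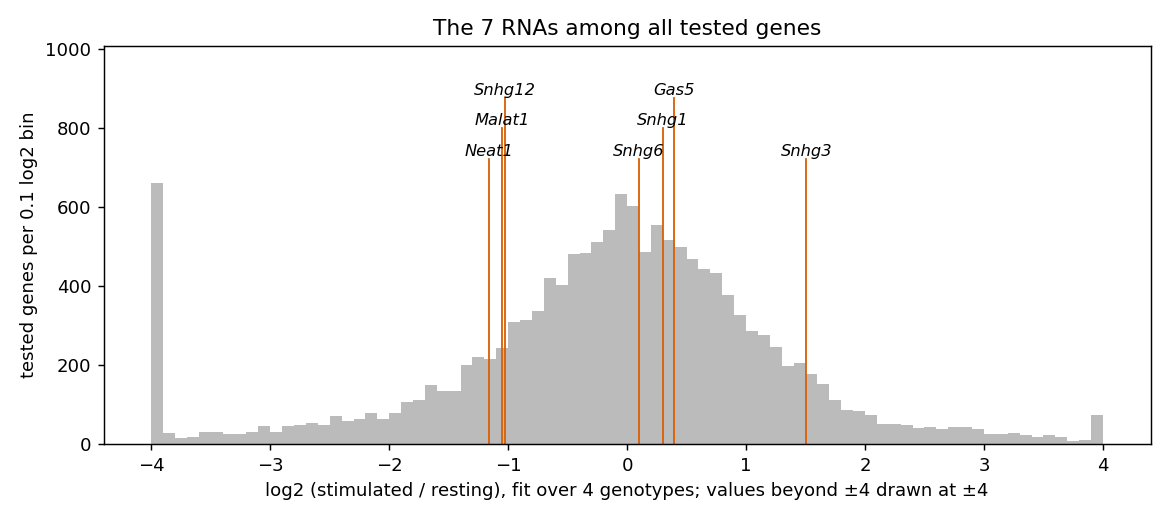
Histogram of the log2 change, stimulated over resting, of the 14789 tested genes (x axis, log2; y axis, genes per bin), with a vertical line for each of the 7 RNAs. Snhg12, Malat1 and Neat1 lie together near -1, Snhg3 lies at 1.51, and Gas5, Snhg1 and Snhg6 lie in the middle of the distribution.

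Snhg3 (chr4:132348014-132353686, minus strand, 5 exon blocks) is the host of the U17 snoRNAs. It had 20.9, 20.4, 14.0 and 24.1 CPM in stimulated 3'RR, hs3b-hs4, 3'PAL and WT cells, against 5.47, 7.36, 7.91 and 6.90 CPM in resting cells of the same genotypes. Every stimulated library lay above every resting one, and 30.8% of all tested genes shared that pattern. The log2 change was 1.51 ± 0.19, with an adjusted p of 0.000336 from edgeR's quasi-likelihood test. Snhg3 shares 135 exon bases on the same strand with the protein-coding gene Rcc1, so reads in that stretch could not be assigned to it with certainty. On the opposite strand the lincRNA Gm17300 shares 705 exon bases with Snhg3 and had 46 counts in all 8 libraries together.

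Snhg12 (chr4:132308678-132311024, plus strand, 2 exon blocks) hosts Snora16a, Snora44, Snora61 and Snord99. It had 25.4, 25.3, 25.5 and 27.8 CPM in stimulated 3'RR, hs3b-hs4, 3'PAL and WT cells, against 48.3, 57.6, 58.0 and 48.2 CPM in resting cells. All 4 stimulated libraries lay below all 4 resting ones, a pattern of 31.3% of tested genes. The log2 change was -1.03 ± 0.10, with an adjusted p of 8.52e-05 by the same test. The stimulated levels were the most even of the 7 RNAs, with a coefficient of variation of 4.64% over the 4 genotypes, against 10.4% in resting cells.

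Gas5 (chr1:161034422-161038539, plus strand, 3 exon blocks) hosts 9 snoRNA entries. It had 298.0, 253.7, 175.0 and 328.4 CPM in stimulated 3'RR, hs3b-hs4, 3'PAL and WT cells, against 207.4, 194.3, 181.2 and 200.1 CPM in resting cells. The stimulated 3'PAL library lay below all resting libraries and the other 3 stimulated libraries lay above them, so the groups overlap. The log2 change was 0.39 ± 0.13, with an adjusted p of 0.0284 by edgeR's test. The call was lost in 6 of 8 fits that left out a single library, that is, in every such fit except the 2 without a 3'PAL library. In those 6 fits the adjusted p ran from 0.0729 to 0.122.

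Snhg1 (chr19:8723496-8726442, plus strand, 1 exon block) hosts 8 snoRNA entries. It had 130.03, 136.4, 116.7 and 163.1 CPM in stimulated 3'RR, hs3b-hs4, 3'PAL and WT cells, against 93.6, 117.5, 127.4 and 105.1 CPM in resting cells. The groups overlap, again through the 3'PAL libraries. The log2 change was 0.30 ± 0.13, with an adjusted p of 0.0746 by edgeR's test. It passed the threshold when a 3'PAL library was left out, with a log2 change of 0.44 and an adjusted p of 0.00896 without the resting one, and 0.46 and 0.00887 without the stimulated one.

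Snhg6 (chr1:9941959-9944118, minus strand, 3 exon blocks) hosts Snord87. It had 34.9, 27.4, 19.2 and 21.8 CPM in stimulated 3'RR, hs3b-hs4, 3'PAL and WT cells, against 20.6, 28.1, 26.9 and 19.6 CPM in resting cells. The groups overlap widely, with the 3'RR library the highest of the stimulated ones and near the lowest of the resting ones. Over the genotypes its log2 change was 0.10 ± 0.19, with an adjusted p of 0.661 by edgeR's test. Its sign turned without a 3'RR library, to -0.12 without the resting one and -0.14 without the stimulated one. On the opposite strand the gene Mcmdc2 shares 127 exon bases with Snhg6.

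Malat1 (chr19:5795690-5802672, minus strand, 1 exon block) was among the most abundant RNAs, at up to 1.08% of a library's counts. It had 3852, 4292, 6021 and 3248 CPM in stimulated 3'RR, hs3b-hs4, 3'PAL and WT cells, against 8094, 8213, 9049 and 9999 CPM in resting cells. The groups do not overlap. Its log2 change was -1.05 ± 0.18, with an adjusted p of 0.00147 by edgeR's test. It was also called when Malat1 was left out of the scaling along with AY036118, globin and immunoglobulin genes.

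Neat1 (chr19:5824708-5845478, minus strand, 1 exon block) lies beside Malat1 on the same strand. It had 75.6, 71.1, 121.5 and 55.0 CPM in stimulated 3'RR, hs3b-hs4, 3'PAL and WT cells, against 168.8, 183.7, 151.9 and 188.8 CPM in resting cells. The stimulated 3'PAL library was the highest of its state and the resting 3'PAL library the lowest of its own, yet the groups do not overlap. Stimulation changed it by -1.16 ± 0.22 on the log2 scale, with an adjusted p of 0.00234 by edgeR's test. The count entry spans 20771 bases and does not tell the short from the long Neat1 isoform, of which the long one is the paraspeckle scaffold.

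**Figure D2:**
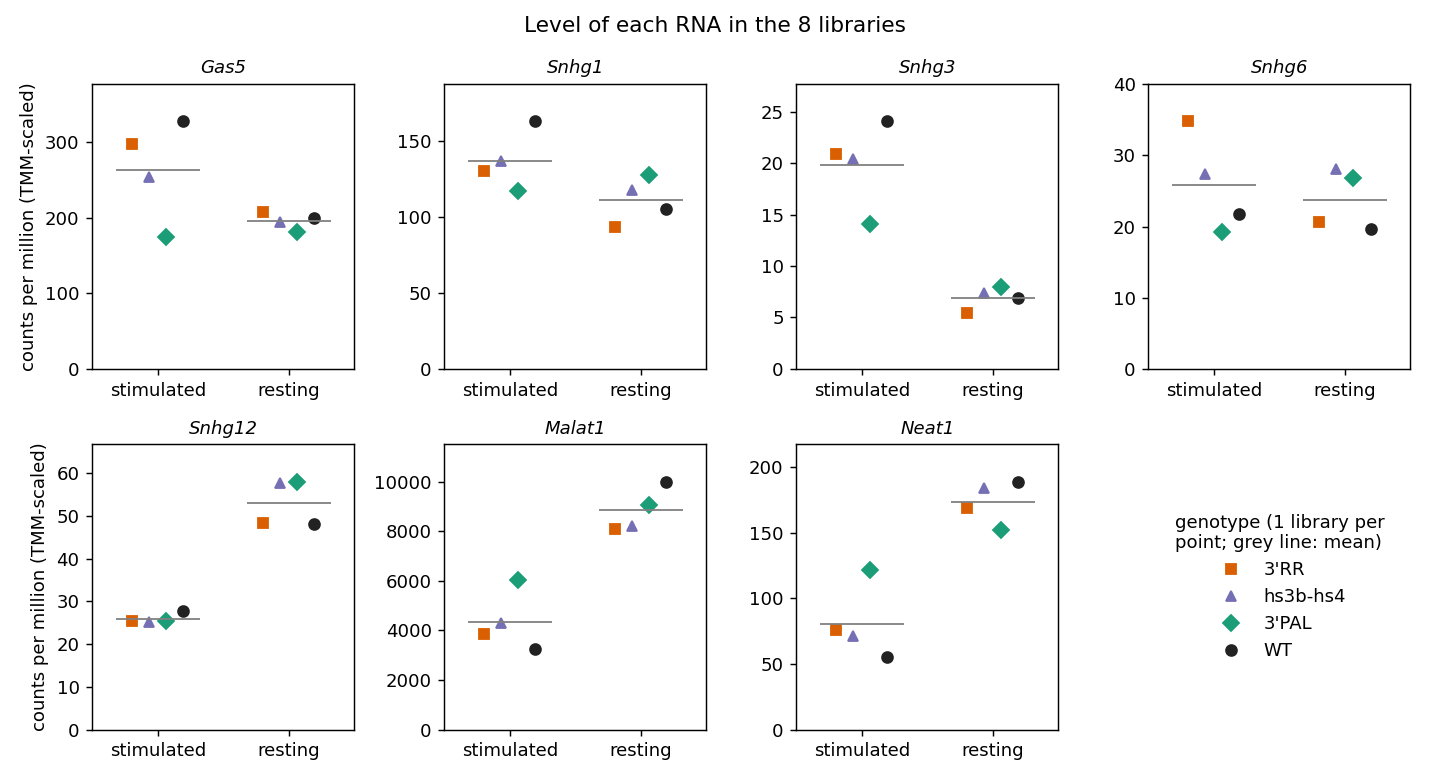
Level of each of the 7 RNAs in the 8 libraries (y axis, TMM-scaled CPM, starting at 0), with stimulated libraries on the left and resting ones on the right of each panel. Points are single libraries by genotype and the grey line is their mean. Snhg3 is higher in all stimulated libraries, Snhg12, Malat1 and Neat1 are lower in all of them, and the other 3 overlap.

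Snhg3, Snhg12, Malat1 and Neat1 were called in all 8 fits without a single library and in all 7 other settings that held the members. Over the 8 fits without a single library the log2 change ran from 1.34 to 1.75 for Snhg3, -1.09 to -0.96 for Snhg12, -1.21 to -0.85 for Malat1 and -1.43 to -0.94 for Neat1. In the 7 other settings it ran from 1.39 to 1.55, -1.15 to -0.99, -1.17 to -1.02 and -1.28 to -1.12 for these RNAs.

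Levels of different RNAs were compared per kilobase of counted exon sequence, as CPM per kb. Malat1 stood far above the rest in both states, at 623.4 ± 170.6 CPM per kb in stimulated and 1266 ± 126.4 in resting cells (SD, n = 4 genotypes each). In stimulated cells the order that followed was Gas5 (70.2 ± 17.7 CPM per kb), Snhg1 (46.3 ± 6.62), Snhg6 (22.5 ± 6.05), Snhg3 (20.1 ± 4.28), Snhg12 (16.0 ± 0.741) and Neat1 (3.89 ± 1.37). Gas5 and Snhg1 overlap there, as do Snhg6 and Snhg3 and also Snhg3 and Snhg12. In resting cells it was Gas5 (52.1 ± 2.94 CPM per kb), Snhg1 (37.6 ± 4.99), Snhg12 (32.6 ± 3.40), Snhg6 (20.8 ± 3.75), Neat1 (8.34 ± 0.800) and Snhg3 (7.01 ± 1.06). Snhg1 and Snhg12 overlap in that order, and so do Neat1 and Snhg3. Snhg12 thus stood above Snhg6 and Snhg3 in resting cells and last among the host genes in stimulated cells. For Gas5, Snhg1 and Snhg12 the length used includes intron sequence, and for Snhg3 it includes part of Snora73a. The place of these RNAs in the order thus holds for the counted blocks and not for the spliced RNAs. For Neat1 the length used is the whole entry of 20771 bases, which does not tell the short from the long isoform. Its low place thus depends on that length and is not the place of either isoform.

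Malat1 and Neat1, which moved the same way, kept a similar proportion within each library. The count ratio of Malat1 to Neat1 was 51.0, 60.4, 49.5 and 59.0 in stimulated 3'RR, hs3b-hs4, 3'PAL and WT cells, against 47.9, 44.7, 59.6 and 53.0 in resting cells. The ranges overlap. The ratio of Gas5 to Snhg1, both counted over intron and exon, was 2.29, 1.86, 1.5 and 2.01 in the stimulated libraries of these genotypes, against 2.21, 1.65, 1.42 and 1.90 in the resting ones. In either state the ratio was highest in the 3'RR library and lowest in the 3'PAL library. Neither ratio was tested.

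Snora73b, which lies in an Snhg3 intron, did not follow its host. It had 358.6, 180.0, 158.1 and 274.4 CPM in stimulated 3'RR, hs3b-hs4, 3'PAL and WT cells, against 363.2, 230.5, 177.4 and 247.1 CPM in resting cells. The genotypes kept the same order in both states, with 3'RR highest and 3'PAL lowest. The log2 change with stimulation was -0.10 ± 0.10, with an adjusted p of 0.424 by edgeR's test. Counts of Snora73b were 8.82 to 17.2 times those of Snhg3 in stimulated libraries and 22.4 to 66.4 times in resting ones, and these ranges do not overlap. Reads from the stretches that Snora73b and Snora73a have in common cannot be told apart by sequence, so the split of counts between the copies is uncertain. The split between Snora73a and Snhg3 is uncertain as well, since 159 of the 205 Snora73a bases lie in Snhg3 exon blocks.

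**Figure D3:**
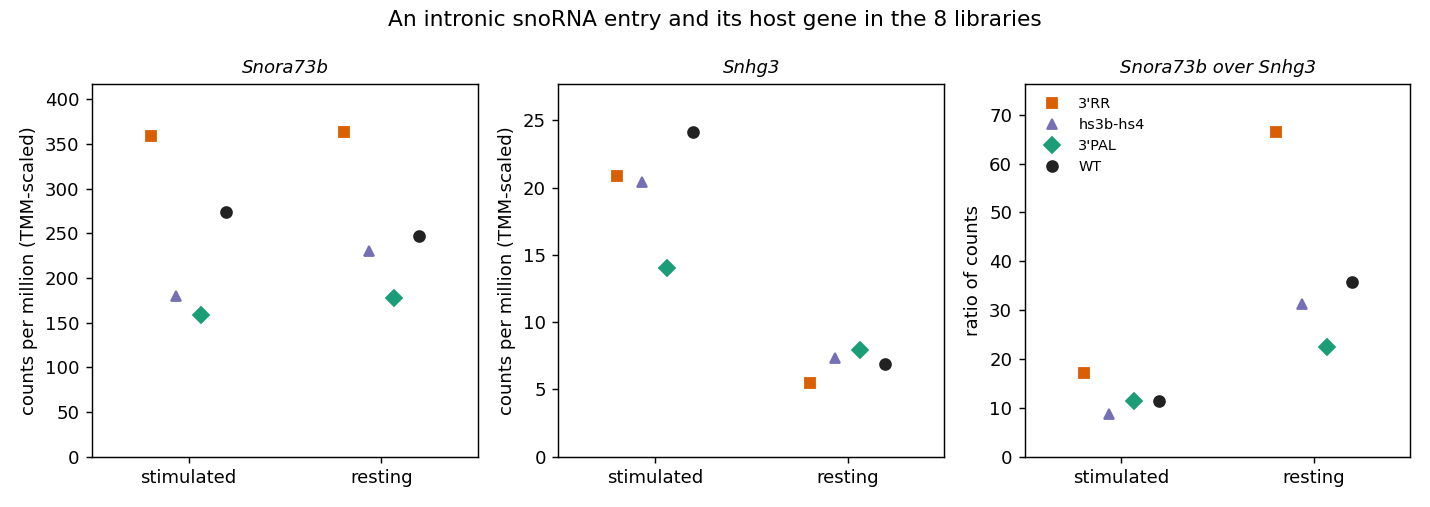
Level of Snora73b and of Snhg3 in the 8 libraries (y axes, TMM-scaled CPM) and the ratio of their counts (right panel), with stimulated libraries on the left of each panel. Points are single libraries by genotype. Snhg3 separates the states, Snora73b separates the 3'RR from the 3'PAL libraries, and their ratio is 8.82 to 17.2 in stimulated and 22.4 to 66.4 in resting libraries.

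Among 26 listed snoRNAs of these hosts 10 had a row of their own name and 5 were tested, and of those 2 fell and none rose with stimulation. Snora24, which the annotation places within Snhg8, had 7.06, 5.59, 6.08 and 7.54 CPM in stimulated 3'RR, hs3b-hs4, 3'PAL and WT cells, against 9.35, 13.4, 13.3 and 9.75 CPM in resting cells. All stimulated values lay below all resting values, with a log2 change of -0.79 ± 0.19 and an adjusted p of 0.00729 by edgeR's test. Snora16a, within Snhg12, had 42 to 59 counts in stimulated and 51 to 120 counts in resting libraries. Its log2 change was -0.89 ± 0.26, with an adjusted p of 0.0165. Snora73a, at 16 to 42 counts in stimulated and 6 to 15 in resting libraries, and Snord87, at 15 to 26 counts in either state, did not pass the test.

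The other genes of these pathways were taken from fixed lists. Each count from these lists is to be read beside the 34.5% of all tested genes that rose and the 35.2% that fell. A count near those shares is not a result about its list. Of 6 tested host genes outside the 8 names, 3 rose and none fell. These were Snhg5 (log2 change 1.10 ± 0.09), Snhg4 (1.56 ± 0.17) and Snhg7 (0.68 ± 0.17). Of 15 other tested lncRNAs 1 rose and 5 fell, among them the telomerase RNA Terc (-0.98 ± 0.18), Tug1 (-0.83 ± 0.09), Pisd-ps1 (-1.48 ± 0.14) and Ftx (-0.54 ± 0.10).

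Genes for the proteins that bind and assemble snoRNAs moved most evenly, with 18 of 19 higher, none lower and a median log2 change of 1.09. The lowest adjusted p values were those of Ruvbl2 (1.80 ± 0.11) and Ruvbl1 (1.51 ± 0.13), helicases of the assembly complex, and of Nhp2 (1.64 ± 0.11) and Dkc1 (1.67 ± 0.13), a core protein and the pseudouridine synthase of H/ACA particles. Of 18 nonsense-mediated decay factors 8 rose and 5 fell, with a median of 0.09. Among them Rbm8a, an exon junction protein, rose by 0.91 ± 0.09, and the kinase gene Smg1 (-0.80 ± 0.08), the nuclease gene Smg6 (-0.82 ± 0.09) and the helicase gene Dhx34 (-1.03 ± 0.09) fell.

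Of 17 paraspeckle protein genes 9 rose and 3 fell, with a median of 0.23 beside the fall of Neat1. Nono, a core paraspeckle protein, rose by 1.01 ± 0.10, and Dazap1 (1.01 ± 0.08), Nudt21 (1.18 ± 0.11) and Cpsf6 (0.64 ± 0.09) rose as well. Of 15 nuclear speckle protein genes 5 rose and 5 fell, with a median of -0.02. The splicing factor gene Srsf5 (-1.18 ± 0.11), Pnisr (-0.70 ± 0.07) and Srrm1 (-0.65 ± 0.09) fell, and Pnn rose (0.72 ± 0.10). Of 15 genes of 5′ TOP messages and their mTOR regulators 6 rose and 3 fell. Larp1, which binds the 5′ TOP end, rose by 0.63 ± 0.08 and Eif3h by 0.61 ± 0.08. The mTOR complex genes Rictor (-1.09 ± 0.09) and Rptor (-0.51 ± 0.10) fell, while the kinase gene Mtor rose (0.30 ± 0.07).

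The size of the change differed between genotypes. For Gas5 the stimulated level was 1.44, 1.31, 0.966 and 1.64 times the resting level in 3'RR, hs3b-hs4, 3'PAL and WT cells. For Snhg1 it was 1.39, 1.16, 0.916 and 1.55 times. For Snhg3 it was 3.82, 2.77, 1.77 and 3.49 times. In all 3 the 3'PAL ratio was the smallest, and for Gas5 its interval (0.927 to 1.01) includes 1.

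The falls were likewise smallest in 3'PAL cells for the nuclear lncRNAs. Malat1 was 0.476, 0.523, 0.665 and 0.325 times its resting level in 3'RR, hs3b-hs4, 3'PAL and WT cells. Neat1 was 0.448, 0.387, 0.800 and 0.291 times its resting level. Snhg12 differed from these, at 0.525, 0.439, 0.439 and 0.576 times, with the smallest fall in WT cells. Snhg6 was at 1.69, 0.975, 0.714 and 1.11 times and had intervals on both sides of 1.

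Of the 5 RNAs called in the stimulation test, 4 had their smallest change in 3'PAL cells. The same was true of 45.9% of the 5109 genes called higher and 42.9% of the 5200 called lower, so the RNAs share this with many genes. The intervals on these ratios are exact 95% binomial intervals and cover counting error only. Reads were amplified without molecular tags, so they are not independent molecules, and 1 library per genotype and state leaves no test of the difference between genotypes.

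**Figure D4:**
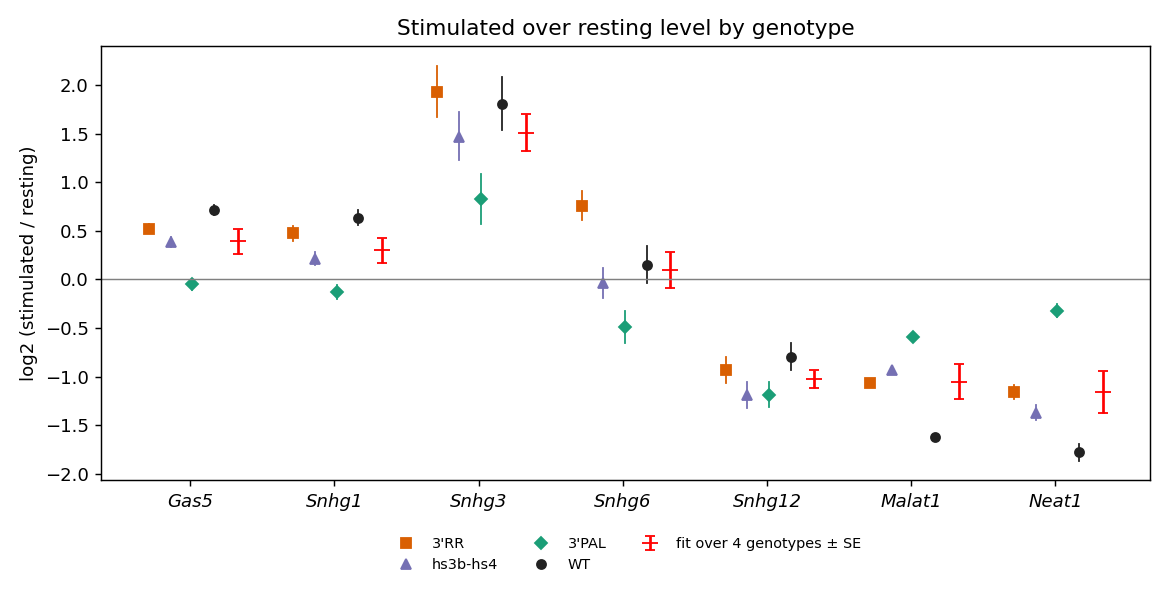
Log2 of the stimulated over the resting level for each of the 7 RNAs in each genotype (points, with 95% counting intervals) and the fit over the 4 genotypes (red, with SE). The 3'PAL points lie closest to 0 for Gas5, Snhg1, Snhg3, Malat1 and Neat1, and the 4 genotypes lie close together for Snhg12.

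The second question was whether the deletions moved these RNAs. Over both states together none of the 7 passed the test in any mutant. In the 3'RR comparison 0 of 7 were called (1.89% of all tested genes), in the hs3b-hs4 comparison 0 of 7 (0.135%), and in the 3'PAL comparison 0 of 7 (0.514%). Unadjusted p values under 0.05 from edgeR's test numbered 0, 0 and 1 of the 7 in these comparisons, beside 2022, 1316 and 1412 of the 14789 tested genes, and DESeq2 called none of the 7 either. The 3 comparisons share the WT libraries.

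The single unadjusted call was Gas5 in 3'PAL cells, with a log2 difference from WT of -0.52 ± 0.18 and an adjusted p of 0.424 by edgeR's test. Over all 7 RNAs the log2 difference ran from -0.26 to 0.41 in 3'RR, -0.22 to 0.42 in hs3b-hs4 and -0.52 to 0.44 in 3'PAL cells. In 3'RR and hs3b-hs4 cells the highest value was that of Snhg6 (0.41 ± 0.26 and 0.42 ± 0.26) and in 3'PAL cells that of Neat1 (0.44 ± 0.30). This fit assumes the same mutant difference in both states. Snora73b, again not called, had log2 differences of 0.47 ± 0.14, -0.35 ± 0.14 and -0.64 ± 0.15 in 3'RR, hs3b-hs4 and 3'PAL cells, with adjusted p values of 0.212, 0.540 and 0.162 by edgeR's test.

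Within a state a mutant library was set against the WT library without a test. In stimulated cells Gas5, Snhg1, Snhg3 and Snhg12 were below WT, and Malat1 and Neat1 above it, in all 3 mutants. The remaining host gene, Snhg6, was above WT in 3'RR and hs3b-hs4 cells and below it in 3'PAL cells. These directions were the same under 4 scalings of the libraries, which rescale the same counts. Every ratio has the same stimulated WT library below it, so the mutants do not stand as independent of each other here. The share of all tested genes on 1 side of WT in all 3 mutants was not counted. For Snhg12 the counting interval included 1 in each mutant (0.823 to 1.01 in 3'RR, 0.818 to 1.01 in hs3b-hs4, 0.828 to 1.02 in 3'PAL).

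For Neat1, Malat1, Gas5, Snhg3 and Snhg1 the distance from WT was greatest in 3'PAL cells. Neat1 stood at 2.21 times (95% counting interval 2.08 to 2.35) the WT level in stimulated 3'PAL cells, and Malat1 at 1.85 times (1.84 to 1.87). Gas5 stood at 0.533 times (0.515 to 0.552), Snhg3 at 0.582 times (0.513 to 0.660) and Snhg1 at 0.716 times (0.684 to 0.748). Snhg12, at 0.918 times (0.828 to 1.02), and Snhg6, at 0.880 times (0.783 to 0.989), stood nearer to WT.

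In stimulated 3'RR cells Malat1 was 1.19 times and Neat1 1.37 times the WT level, and in hs3b-hs4 cells they were 1.32 and 1.29 times. Gas5 was 0.907 times in 3'RR and 0.772 times in hs3b-hs4 cells. Snhg6 went the other way from the remaining host genes in these mutants, at 1.60 times (1.44 to 1.77) the WT level in 3'RR and 1.26 times (1.12 to 1.4) in hs3b-hs4 cells.

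By a rule of at least 1.5-fold on log2(CPM + 1) and 10 CPM in the higher library, 4 of the 7 differed in stimulated 3'PAL cells (5.75% of all tested genes), of which 2 were higher (4.08%) and 2 lower (1.67%). In stimulated 3'RR cells 1 of 7 did, which was Snhg6 (4.38% of all genes), and in stimulated hs3b-hs4 cells none did (2.02%). At 2-fold the only one was Neat1 in 3'PAL cells, where 1.72% of all genes passed. The sum of 6 plasma cell markers also differed in the stimulated libraries, at 2114, 1379 and 1570 CPM in 3'RR, hs3b-hs4 and 3'PAL cells and 970.0 CPM in WT cells. In resting libraries of these genotypes the sum was 1019, 1828, 1632 and 956.1 CPM. With stimulation 3 of the 6 markers rose and 1, Irf4, fell. The part of plasma cells in the mutant ratios was not tested.

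In resting cells none of the 7 reached 1.5-fold in 3'RR (6.98% of all genes), hs3b-hs4 (5.12%) or 3'PAL cells (4.54%). Malat1 was at 0.809, 0.821 and 0.905 times the WT level in resting 3'RR, hs3b-hs4 and 3'PAL cells, and Neat1 at 0.894, 0.973 and 0.804 times, so both lay below WT in all 3 mutants. Snhg6 reached 1.43 times in hs3b-hs4 and 1.37 times in 3'PAL cells, which are the highest resting ratios of the 7. Gas5 stayed between 0.906 and 1.04 times.

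**Figure D5:**
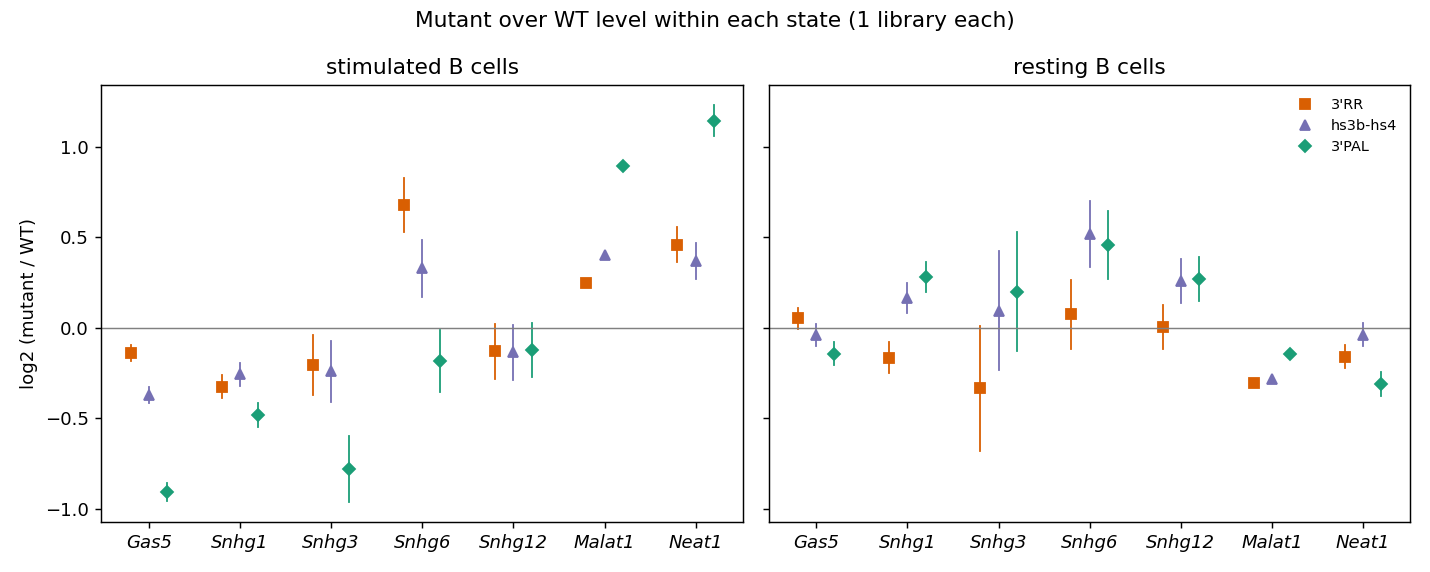
Log2 of the mutant over the WT level for each of the 7 RNAs, in stimulated (left) and resting cells (right). Points are ratios of single libraries with 95% counting intervals. In stimulated cells the 3'PAL points lie lowest for Gas5, Snhg1 and Snhg3 and highest for Malat1 and Neat1, and in resting cells all points lie between 0.792 and 1.43 times WT.

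The spread over genotypes was wider in stimulated than in resting cells for several of these RNAs. The share of all tested genes of which this is true was not counted. The highest over the lowest genotype of Gas5 was 1.88 in stimulated and 1.14 in resting cells. For Malat1 it was 1.85 in stimulated and 1.24 in resting cells, and for Neat1 it was 2.21 and 1.24 in these states. Snhg12 went against this pattern, with 1.1 in stimulated and 1.2 in resting cells.

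As a description of pattern, the 3 genes with the highest Pearson correlation to each RNA over the 8 libraries were found among 4366 or 4367 tested genes with a mean log2 CPM of at least 5. The points share the 2 states, so any gene that separates the states correlates with the RNAs that do. They were Hnrnpc, Strap and Rrp1 for Snhg3 (r from 0.997 to 0.998), Ppp1r21, Eif4a2 and Ddx5 for Snhg12 (0.996 to 0.997), Mlxip, Zbtb4 and Arid1b for Malat1 (0.986 to 0.993), and Pik3cg, Gak and Ctsh for Neat1 (0.986 to 0.993). For the RNAs whose states overlap they were Ppp2ca, Trmt1 and Noc2l for Gas5 (0.936 to 0.943), Gtpbp4, Usp22 and Krr1 for Snhg1 (0.964 to 0.972) and Fig4, Dhx8 and Ddx41 for Snhg6 (0.856 to 0.961).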

How the data were processed

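Raw counts for each gene symbol were deposited by the authors in 1 table; STAR 2.4.0a, featureCounts of Subread 1.4.6-p1, kallisto 0.42.3, SAMtools, bedtools and GRCm38 (mm10) are named in the submitters' processing notes. Ribosomal RNA was depleted and stranded libraries were made from 1 µg of total RNA with 14 cycles of amplification and read as 150-base pairs, per the labels' protocols. The sources used here do not give the annotation version, the strand setting of the counting or the treatment of overlapping features. The deposited transcript table of estimated counts, rounded and summed per gene by the present steps, covers 88198 transcripts and none of the 8 RNAs, so it served as an alternative for counts of all genes only. For the same reason levels of different RNAs were compared as CPM per kb from the count table, in place of the planned TPM, and the planned transcript shares were not computed. An unnamed entry (0.00621 to 0.0342% of a library) was left out.

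Counts were scaled by TMM and tested with edgeR 4.0.16 in R 4.3.3 after filterByExpr (14789 genes), in 1 fit with 3 residual degrees of freedom, a coefficient of biological variation of 16%, and terms for genotype and state. The standard error is the size of the log2 change over the square root of F. The test was checked on simulated counts. Within-state ratios are of single libraries. Alternatives used DESeq2 1.42.0, other scalings, no filter, no genotype term and each library left out. Named from each list were at most 4 genes with the lowest adjusted p, other snoRNAs of the hosts with their values, and Mtor beside Rictor and Rptor. The RNAs and lists were chosen with earlier results of these data known. P-values rest on the spread between the 8 pooled libraries that is left after the genotype and state terms. With 1 library per genotype and state, this spread joins library noise with any difference between genotypes in the response to stimulation. The coefficient of 16% comes from the same spread. Neither measures the spread between single animals.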

Additional observations from a re-analysis of the deposited data

Results flagged for a closer look

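Snhg12 in stimulated cells was flagged because the WT library, at 27.77 CPM, lay far from the 3 mutant libraries (25.3 to 25.5 CPM) for the narrow range of that group. This was 1 of 14 groups of 4 libraries examined, and chance flags about 1 in 20 groups.

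The other results were flagged because an RNA moved in opposite directions in 2 groups of libraries, and none of these differences was tested, since each group is 1 library. Of 21 mutant ratios compared between the states, 8 had counting intervals on opposite sides of 1. The share of all tested genes with such intervals was not counted, so this number is not a result about these RNAs. Counting intervals narrow as counts rise, so those of Malat1 exclude 1 at small differences. For Malat1 the mutant over WT ratio in stimulated cells was 1.47 times that in resting cells in 3'RR, 1.61 times in hs3b-hs4 and 2.05 times in 3'PAL cells. For Neat1 this factor was 1.54 in 3'RR and 2.75 in 3'PAL cells. For Snhg1 it was 0.747 in hs3b-hs4 and 0.59 in 3'PAL cells, and for Snhg6 it was 0.642 in 3'PAL cells. All share the WT libraries, of which the resting one has the fewest counts.

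In 3'PAL cells the stimulated over resting ratio was 0.916 for Snhg1, against ratios above 1 in the other genotypes. For Snhg6 it was 0.714 in 3'PAL cells, against 1.69 in 3'RR cells.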

How the results depend on the processing

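Of the 7 RNAs 3 were called lower with stimulation in every setting that held them. The number called higher was 2, but 3 without a filter on low counts and 1 to 3 without single libraries. It was 1 without the replicate block (genotype term). It was also 1 with library sizes without genes over 1% of a library, a scaling chosen after seeing the data. In these 2 settings Gas5 had adjusted p values of 0.0793 and 0.0544. That added scaling moved every stimulation log2 change by -0.12. Snhg1 passed without a filter on low counts (adjusted p 0.0470). No mutant comparison called an RNA in any of 15 settings. Under 4 scalings 3 of 42 within-state ratios crossed 1, all 3'RR over WT in resting cells, for Gas5, Snhg6 and Snhg12. With library size alone the 3'PAL stimulated over resting ratio of Gas5 was 1.01. Not run were the estimated counts for the 8 RNAs and their transcript shares.

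Counts of all genes differing from WT moved most. The 3'RR comparison had 128 higher and 151 lower genes, with 75 and 147 by library size alone, 80 and 154 by the added scaling, 280 and 246 by DESeq2, and 404 and 253 without a filter. The hs3b-hs4 comparison had 10 and 10, with 94 and 87 by DESeq2, 100 and 89 without a filter, and 17 and 18 by estimated counts. The 3'PAL comparison had 50 and 26, with 32 and 24 by library size alone, 153 and 103 by DESeq2, and 208 and 105 without a filter. Without single libraries the 3'RR counts ran from 13 to 193 higher and 58 to 174 lower, the hs3b-hs4 counts from 0 to 16 higher and 1 to 27 lower, and the 3'PAL counts from 1 to 70 higher and 2 to 40 lower. The lowest counts came without the resting 3'RR library for 3'RR, without the resting hs3b-hs4 library for hs3b-hs4 and without the resting WT library for 3'PAL. The cause was not tested.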
